A study of Mus musculus with 6 samples.

Results

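The astrocyte and gliogenesis genes described here are Gfap, Aqp4, Aldh1l1, Aldoc, Slc1a2, Gja1, Apoe, Sparcl1, Nfia and Sox9, markers of the onset of the astrocyte lineage at the end of neurogenesis. They were found by their symbols, and are 10 of the 59484 features in a table of gene expression in the mouse cortex at embryonic day 18.5 (E18.5). Each symbol had 1 feature, and all 10 passed the filter of a mean of at least 10 normalized counts, as did 18970 features in all. All were detected in every library, the lowest value being that of Aqp4 in dKO replicate 1 with 20.0 normalized counts (22 reads).

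In the embryonic cortex, radial glia first produce neurons, directly or through intermediate progenitors, and turn to the production of glia around birth. SOX9 and the nuclear factor I proteins are transcription factors needed for this switch, and cytokine signalling through STAT3 and BMP signalling through SMAD proteins drive the genes of the mature astrocyte, Gfap among them. Several of the 10 genes are not exclusive to astrocytes at this age: radial glia also express Sox9, Nfia, Aldoc, Aldh1l1 and Apoe, and Sparcl1 is made by neurons and vascular cells as well.

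RNA sequencing of polyadenylated RNA compared the cortex of 3 wild-type with that of 3 Sam68:Slm2 knockout (dKO) embryos at E18.5, all of the C57BL/6 strain. The dKO embryos lack the RNA-binding proteins Sam68 and SLM2 in every cell from conception, and they came from intercrosses of Sam68+/- : Slm2-/- parents, so that no embryo of such litters carries Slm2. Wild-type embryos therefore cannot have come from these litters or these parents, and their own parents are not given in the sources used here. Litter and parentage cannot be told apart from genotype. No label ties libraries to separate animals beyond their numbers, and the p-values measure the spread between these libraries only.

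The libraries held between 31837922 and 40896541 reads on the listed features. The targeted genes were lower in the libraries labelled dKO. Khdrbs1 (Sam68) averaged 8213 ± 232 normalized counts in wild-type libraries against 152 ± 41.5 (SD over 3 libraries). Its log2 fold change was -5.78, with a limma adjusted p of 1.08e-07. Khdrbs3 (SLM2) averaged 13841 ± 1252 against 6652 ± 366, so that 48.1% of the wild-type transcript level remained. Its log2 fold change was -1.05, with an adjusted p of 0.000855 in limma, or 0.0891 without its trend and robust options. Protein was not measured in these libraries. The deviation of each library from the mean of the 6 libraries was correlated with exon length across 13978 features. The Spearman correlation was 0.220 in wild-type replicate 1 and 0.311 in dKO replicate 1, against -0.224 to -0.102 in the other 4 libraries. Since the mean is shared, positive values in some libraries go with negative ones in others. Features are not independent of each other, and this is a description of the libraries.

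The bases upstream of the transcription start are where factors of the gliogenic pathways would bind, and RefSeq start sites on GRCm38.p6, the assembly also called mm10, were found for 7 of the 10 genes, with 10 starts in all. Gfap and Apoe are shown, since the first is the classical target of the pathways and the second the most abundant of the genes with a large spread among libraries. Each run gives the 250 bases before a start on the minus strand, 5′ to 3′, with any TTGGC or GCCAA, the core bound by the nuclear factor I proteins, in capitals.
Gfap, chr11:102897201-102897450: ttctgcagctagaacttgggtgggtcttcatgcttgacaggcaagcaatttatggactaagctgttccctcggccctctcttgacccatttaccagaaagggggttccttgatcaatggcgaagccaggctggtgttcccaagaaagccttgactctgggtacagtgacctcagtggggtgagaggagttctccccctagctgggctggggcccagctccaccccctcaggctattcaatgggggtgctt
Apoe, chr7:19699189-19699438: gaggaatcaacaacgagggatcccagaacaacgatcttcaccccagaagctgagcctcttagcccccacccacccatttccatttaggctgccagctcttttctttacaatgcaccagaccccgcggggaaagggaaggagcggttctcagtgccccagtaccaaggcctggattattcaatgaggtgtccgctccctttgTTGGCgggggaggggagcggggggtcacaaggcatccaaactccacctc
This core was present in 4 of the 10 windows, and in 41.5% of the 32851 windows of the same length in the whole table of starts. The STAT-type motif TTCNNNGAA, which reads the same on both strands, was present in 1 of the 10 windows, at the second Aldoc start, and in 7.02% of all. The SOX-type motif AACAAT or ATTGTT was found in 0 of the 10 windows and in 9.42% of all, and TTGGC followed after 5 bases by GCCAA in 0 of the 10 and 0.0365% of all. These counts describe letters in the windows of 250 bases, and nothing about binding follows from them. Bases further upstream were not searched. Some windows, those of Aldoc among them, overlap exons of their own gene.

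With limma, 0 of the 10 genes passed the adjusted threshold between the genotypes, and the values of most varied widely among libraries of 1 genotype. Mean levels of Aqp4, Gfap and Gja1 in dKO cortex were 47.7%, 55.2% and 57.2% of those in wild-type, while those of Aldoc and Sox9 were 102% and 96.9%, and that of Nfia 123.4%. With limma on log2(normalized count + 1), where the log2 fold change is dKO minus wild-type, 0 of the 10 had an adjusted p under 0.05 (0.1% of the 18970 features did). At an unadjusted p under 0.05, Sparcl1 was lower and Nfia higher in dKO cortex, 2 of the 10 against 11.5% of all features (6.58% lower and 4.92% higher). On the recovered reads, edgeR called 0 of the 10 (0.0843% of all features) and DESeq2 called Sparcl1 alone (1.09%). The median log2 fold change of the 10 genes was -0.45, with 8 below 0 and 2 above, against 0.00 over all features. In bulk cortex, fewer cells of a type and less RNA per cell cannot be told apart.

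Among the transcription factors, Sox9 acts early in the switch to glia. It is listed on chromosome 11 from 112782210 to 112787757 (mm10, as are the positions below) and had 2521, 1425 and 2345 normalized counts in wild-type replicates 1, 2 and 3, and 2164, 2339 and 1596 in dKO replicates 1, 2 and 3. Wild-type replicate 2 was the lowest of the 6 and the genotypes overlapped almost wholly. The log2 fold change was -0.02 (SE 0.22, limma adjusted p = 0.978), with a 95% interval from -0.53 to 0.49 that still holds sizeable differences in either direction, and its sign changed when some libraries were left out.

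Nfia, a nuclear factor I gene that follows Sox9 in the sequence of glial specification, lies on chromosome 4 from 97581866 to 98118874. It had 2536, 2525 and 2013 normalized counts in the wild-type and 3210, 2429 and 3086 in the dKO libraries, a log2 fold change of 0.30 (SE 0.13, unadjusted p = 0.037, limma adjusted p = 0.404). Only dKO replicate 2 lay within the wild-type range. It is the gene of the 10 with the clearest value above 0, and the only one for which wild-type replicate 2 was not the lowest wild-type library. Another feature, E130114P18Rik, overlaps its start with a mean that is 30.4% of that of Nfia, and had 733 ± 147 and 870 ± 116 normalized counts (SD, n = 3), a log2 fold change of 0.26 (limma adjusted p = 0.545). The strand setting of the count is not given in the sources used here, so the share of reads exchanged between these features is unknown.

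Aldh1l1 and Aldoc encode enzymes that mark the astrocyte lineage broadly, the first of folate metabolism and the second of glycolysis. Aldh1l1 (chromosome 6, 90550793 to 90599171) had 2293, 1311 and 2102 normalized counts in wild-type and 1643, 1895 and 1371 in dKO libraries. All 3 dKO values lay inside the wild-type range, and the log2 fold change was -0.19 (SE 0.20, limma adjusted p = 0.74). Aldoc (chromosome 11, 78323073 to 78327785) had 6103, 4329 and 6951 in wild-type and 5963, 6785 and 4962 in dKO libraries, again all inside the wild-type range. Its log2 fold change was 0.04, with a 95% interval from -0.35 to 0.43, and -0.02 after quantile normalization.

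Apoe and Sparcl1 encode secreted proteins, the lipid carrier apolipoprotein E and the synapse-organizing matrix protein hevin. Apoe (chromosome 7, 19696109 to 19699188) had 7741, 3740 and 10476 normalized counts in wild-type and 3995, 6983 and 4191 in dKO libraries. The highest wild-type library had 2.80 times the lowest, and the log2 fold change of -0.46 (SE 0.46, limma adjusted p = 0.732) was no larger than its error. An unnamed feature of nearly the same span had 3.52% of its mean.

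Sparcl1 (chromosome 5, 104079108 to 104114088) had 15040 normalized counts in wild-type replicate 1, 12102 in replicate 2 and 13693 in replicate 3, against 11351, 9770.3 and 8338 in dKO replicates 1, 2 and 3. It was the only gene of the 10 whose genotypes did not overlap, as for 16.4% of all features, with every dKO library below every wild-type library. The means were 13612 ± 1470.5 and 9820 ± 1507 (SD, n = 3), 72.1% of the wild-type level, and the log2 fold change was -0.48 (SE 0.12, 95% interval -0.74 to -0.22). The unadjusted p was 0.00211 and the adjusted p 0.261 in limma, while DESeq2 gave an adjusted p of 0.0210. The exact two-sided permutation test gave p = 0.1, the smallest that 3 against 3 libraries allow. Its spread within a genotype, 0.193 on the log2 scale, was near the 0.194 that is the median over all features.

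Slc1a2, Gja1 and Aqp4 encode proteins of the astrocyte membrane that are needed for glutamate uptake, gap junctions and water transport. Slc1a2 (chromosome 2, 102658662 to 102790784) had 472, 385 and 574 normalized counts in wild-type and 358, 437 and 270.2 in dKO libraries. Its log2 fold change of -0.43 (SE 0.20) had an unadjusted p of 0.0504 (limma adjusted p = 0.437), and dKO replicate 2 lay inside the wild-type range. Gja1, which encodes connexin 43 (chromosome 10, 56377273 to 56402513), had 931, 635 and 1966 in wild-type and 552, 873 and 594 in dKO libraries. Wild-type replicate 3 alone stood more than 2 times above each of the other wild-type values, and the log2 fold change was -0.67 (SE 0.43, limma adjusted p = 0.579).

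Aqp4, the water channel of astrocyte endfeet (chromosome 18, 15389394 to 15411015), was the lowest of the 10 genes. It had 126, 31.1 and 101 normalized counts in wild-type and 20.0, 63.8 and 39.4 in dKO libraries. Wild-type replicate 2 lay among the dKO libraries, and the log2 fold change was -0.98 (SE 0.55, limma adjusted p = 0.521).

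Gfap, which encodes an intermediate filament protein used as an astrocyte marker (chromosome 11, 102887337 to 102897200), had 296, 115 and 294 normalized counts in wild-type and 137, 193 and 58.0 in dKO libraries. Wild-type replicates 1 and 3 lay above every dKO library, while wild-type replicate 2 lay below dKO replicates 1 and 2. The means of 235 ± 104 and 129 ± 68.0 (SD, n = 3) gave a log2 fold change of -0.89 (SE 0.51, limma adjusted p = 0.528), and the 95% interval from -2.06 to 0.28 covers a large decrease as well as none.

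**Figure D1:**
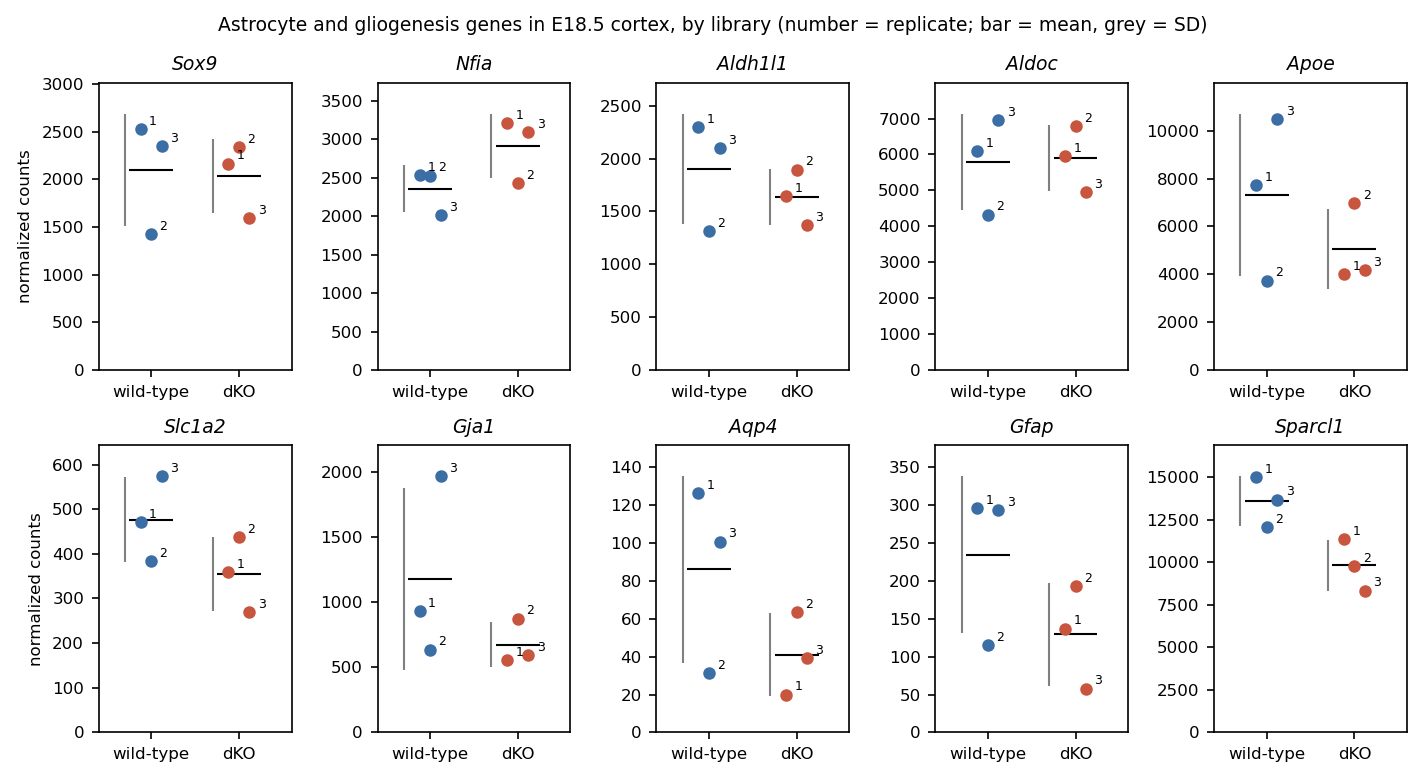
Normalized counts (vertical axis, from 0) of the 10 genes in the 3 wild-type (blue) and 3 dKO (red) libraries, with replicate numbers beside the points, black lines for the means and grey lines for the SD. Sparcl1 is the gene whose genotypes do not overlap, and wild-type replicate 2 is the lowest wild-type library in 9 of the 10 panels.

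Divided by the length of their merged exons, the genes spanned a wide range of levels in wild-type cortex. Sparcl1 (4635 ± 501 normalized counts per kilobase, SD, n = 3), Apoe (3423 ± 1584) and Aldoc (1776 ± 410.0) were the highest, followed by Sox9 (507 ± 142), Aldh1l1 (421 ± 115) and Nfia (216 ± 27.4). Gja1 (115 ± 68.1), Gfap (55.7 ± 24.6), Slc1a2 (36.3 ± 7.23) and Aqp4 (13.8 ± 7.92) were the lowest, and they include the genes of the mature astrocyte. In this order, neighbours were separated without overlap of the 3 wild-type values at Aldoc and Sox9, at Aldh1l1 and Nfia, and at Slc1a2 and Aqp4, while the other neighbours overlapped. The length is that of all GENCODE exons of a gene merged, 10257 bases for Gja1 and 13133 for Slc1a2. It need not match the feature counted or the transcript expressed, so the order depends on the length used.

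**Figure D2:**
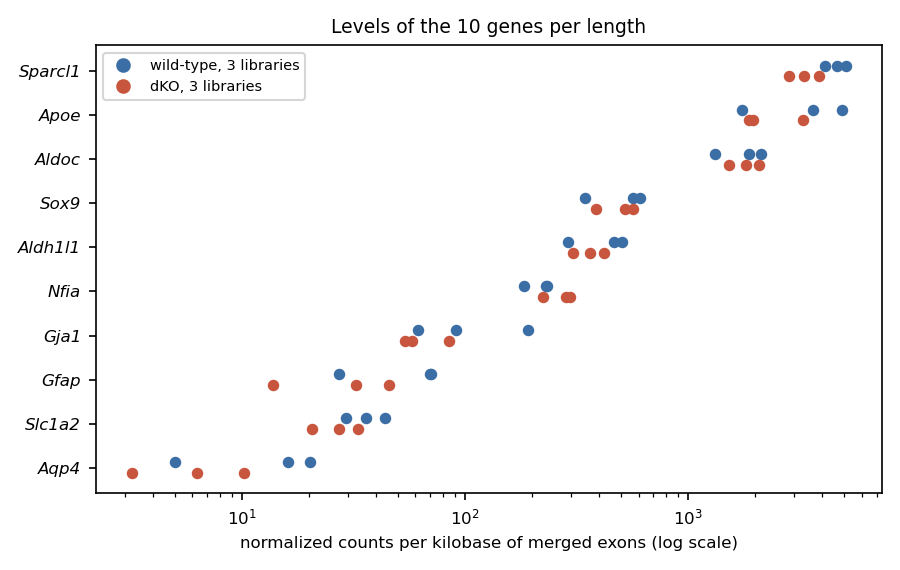
Normalized counts per kilobase of merged exons (horizontal axis, log scale) of the 10 genes in the 3 wild-type (blue) and 3 dKO (red) libraries. The genes run from 4635 for Sparcl1 to 13.8 for Aqp4 in wild-type means.

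The spread among libraries was shared by most of the 10 genes. Wild-type replicate 2 was the lowest wild-type library for 9 of the 10 genes, against 33.3% of all features. It lay inside the range of the dKO libraries for 5 of the 10, and was the lowest of all 6 libraries for 4. Only for Sparcl1 did it lie above every dKO library. Among the dKO libraries, replicate 3 was the lowest for 6 genes and replicate 2 the highest for 8. The median log2 ratio of the 10 genes to the wild-type mean was 0.18, -0.50 and 0.29 in wild-type replicates 1, 2 and 3, and -0.32, -0.04 and -0.69 in dKO replicates 1, 2 and 3, while the median over all features lay within 0.01 of 0 in each library. The median SD within a genotype was 0.363 on the log2 scale for the 10 genes, 0.194 for all features and 0.157 for features with a mean of at least 50.

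How many of the genes differed at an unadjusted p depended on the libraries used, and most on wild-type replicate 2. Without wild-type replicate 2, 8 of the 10 had an unadjusted p under 0.05 in limma (14.3% of all features did), 7 of them lower and Nfia higher in dKO cortex. The genotypes did not overlap for 8 (33.0% of all features). The log2 fold change became -1.34 (SE 0.43) for Gfap, -1.58 (SE 0.44) for Aqp4, -1.04 (SE 0.34) for Gja1 and -0.88 (SE 0.25) for Apoe, and it became -0.15 for Aldoc and -0.28 for Sox9, the genes that stayed above that threshold. None of the 10 passed the adjusted threshold in limma without wild-type replicate 2 either, the smallest adjusted p being 0.120 for Sparcl1. Without dKO replicate 2, the median log2 fold change of the 10 genes was -0.54, and 5 had an unadjusted p under 0.05 in limma (12.2% of all features did). Leaving out other libraries had the opposite effect on some genes. Without wild-type replicate 3, the log2 fold change of Gja1 was -0.22, that of Apoe -0.14 and the median of the 10 genes -0.18. It was -0.40 for Gfap and -0.25 for Slc1a2 without dKO replicate 3, -0.55 for Aqp4 without dKO replicate 1, and -0.59 for Aqp4 and -0.03 for Aldh1l1 without wild-type replicate 1. The labels give no reason to leave out any library, and the values with all 6 stand as the result. Replicate 1 of both genotypes had the positive correlations with exon length. With both left out, 1 gene had an unadjusted p under 0.05 in limma (9.36% of all features did). The median log2 fold change was then -0.19 and that of Aqp4 -0.16.

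**Figure D3:**
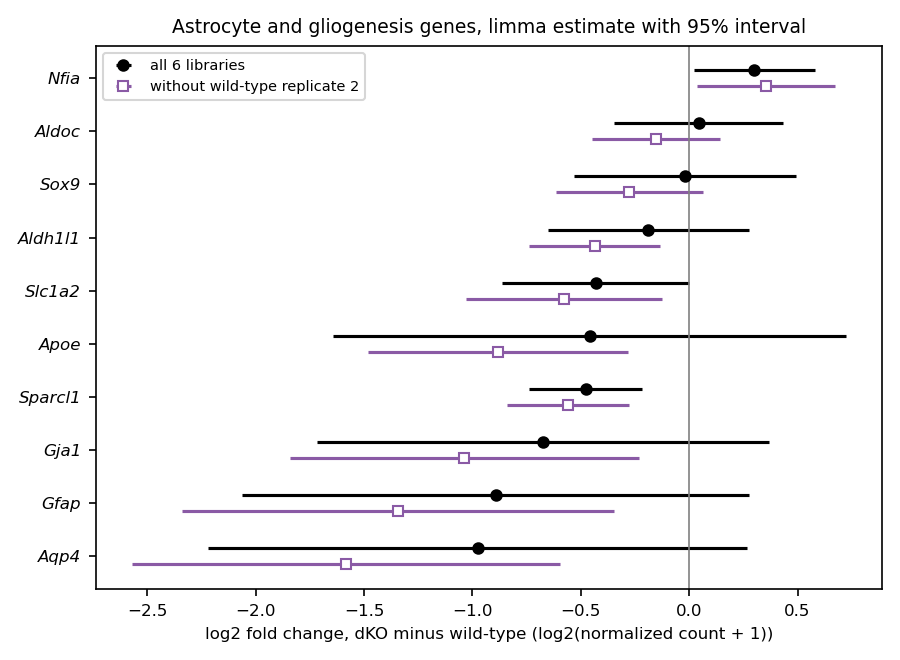
Log2 fold change, dKO minus wild-type (horizontal axis), of the 10 genes with its 95% interval from limma, for all 6 libraries (black circles) and without wild-type replicate 2 (open squares). With all libraries the intervals of Sparcl1 and Nfia exclude 0, and without wild-type replicate 2 those of 8 genes do.

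The same libraries were low for other astrocyte markers. Of 30 listed, 29 were in the table and 28 could be tested. With limma, 0 had an adjusted p under 0.05, and 3 were lower and 0 higher at an unadjusted p under 0.05. The 3 were 10.7% of those tested, against 11.5% of all features. Of the 28 log2 fold changes, 25 were below 0, with a median of -0.25. The smallest p-values were those of Slc25a18, a mitochondrial glutamate carrier (69.5 ± 17.7 and 22.7 ± 11.1 normalized counts, log2 fold change -1.63, adjusted p = 0.236), and Gpc5, a glypican (60.1 ± 30.1 and 17.2 ± 5.05, -1.66, adjusted p = 0.263). Itih3 (log2 fold change -1.58) and the adhesion protein gene Hepacam (-0.85, unadjusted p = 0.0545) followed, and the most abundant, the protease inhibitor gene Cst3, had a log2 fold change of -0.06. The 3 genes at an unadjusted p became 14 without wild-type replicate 2 and 9 without dKO replicate 2, where 14.3% and 12.2% of all features passed. They became 7 with DESeq2 (11.6%) and 0 of those with a mean of at least 50 (11.9%). For the lists below, the shares of all features were 8.06% without wild-type replicate 1 and 7.35% without wild-type replicate 3. They were 11.9% without dKO replicate 1, 6.47% without dKO replicate 3, 9.36% without replicate 1 of both genotypes and 9.88% without the trend and robust options. Wild-type replicate 2 was the lowest wild-type library for 24 of the 28. The median log2 ratio to the wild-type mean was 0.17, -0.43 and 0.29 in the wild-type and -0.34, 0.03 and -0.50 in the dKO libraries, close to those of the 10 genes in each library.

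The pathways that lead to astrocytes were examined as 3 further lists. Of 20 gliogenic transcription factors, 2 were lower and 1 higher at an unadjusted p under 0.05 in limma, with a median log2 fold change of -0.05. These were 15% of the list, against 11.5% of all features. Olig2, which specifies oligodendrocyte precursors and some astrocytes, had 2601 ± 594 and 1659 ± 481 normalized counts (SD, n = 3), a log2 fold change of -0.67 (adjusted p = 0.394). Nfib, a paralog of Nfia, was higher (0.35, adjusted p = 0.396), and the most abundant factor, its paralog Nfix, had a log2 fold change of 0.14 (unadjusted p = 0.289). Id3, a target of BMP signalling, was lower (-0.49), and Stat3, also in the cytokine list, had -0.36 (unadjusted p = 0.0643). The 3 factors at an unadjusted p became 6 without wild-type replicate 2, 1 without wild-type replicate 1 or dKO replicate 1, and 0 without wild-type replicate 3, without replicate 1 of both genotypes or without the trend and robust options.

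Of 13 genes tested of the gliogenic cytokine pathway, 1 was higher and 1 lower at an unadjusted p under 0.05 (15.4%, against 11.5% of all features). Socs3, the feedback inhibitor of STAT3 signalling, had 496 ± 63.9 and 645 ± 63.0 normalized counts with no overlap (log2 fold change 0.38, limma adjusted p = 0.36). The kinase gene Jak2, the most abundant, had a log2 fold change of 0.14. The 2 genes at an unadjusted p became 4 without wild-type replicate 2, 1 without dKO replicate 1 or 2, and 0 without wild-type replicate 1.

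Of 22 genes tested of the BMP pathway, 5 were lower and 4 higher at an unadjusted p under 0.05 (40.9%, against 11.5% of all features). The median was -0.06. The secreted antagonist Nog (log2 fold change -0.56, limma adjusted p = 0.335) and the receptor-regulated Smad9 (-0.93, limma adjusted p = 0.348) were lower, and the shared mediator Smad4 (0.23) and the receptor gene Acvr1 (0.23) were higher, each without overlap. Id2, the most abundant, had 0.11. The 9 genes at an unadjusted p became 3 without dKO replicate 3, and 5 without wild-type replicate 3 or replicate 1 of both genotypes. Over the 4 lists together, with genes in more than 1 list counted once, 10 of 80 were lower and 6 higher at an unadjusted p under 0.05. These were 20% of the 80, against 11.5% of all features, and 0 passed the adjusted threshold.

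**Figure D4:**
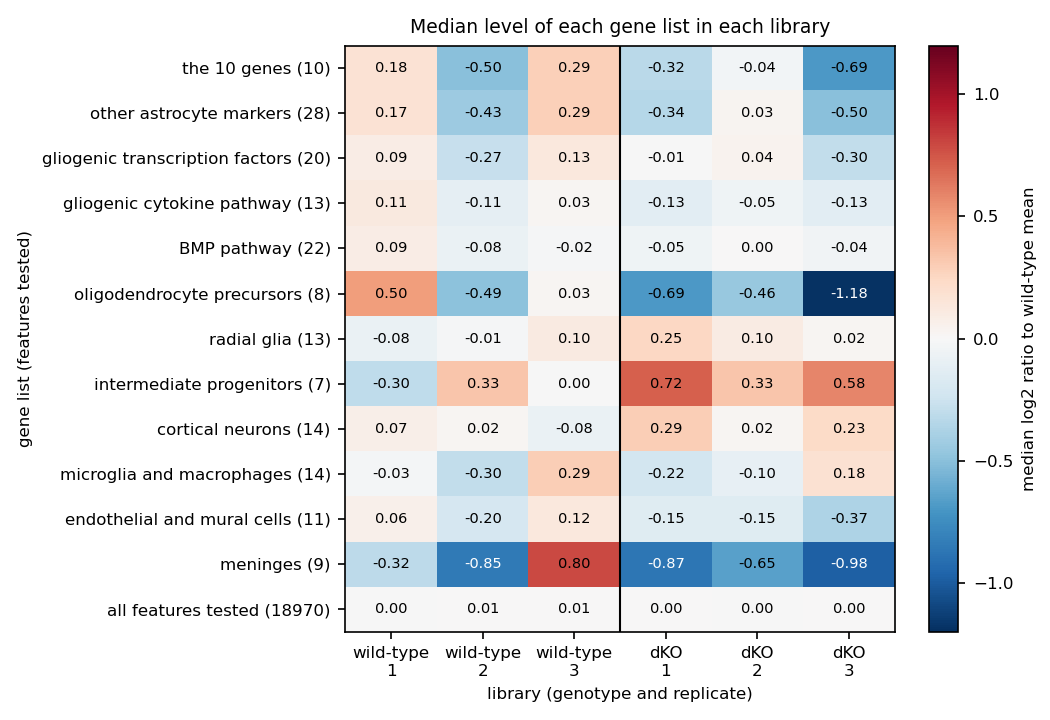
Median log2 ratio to the wild-type mean (colour and printed value) of each gene list (rows, with the number of features tested) in each library (columns, genotype and replicate number). The 10 genes and the other astrocyte markers are low in wild-type replicate 2 and dKO replicates 1 and 3, and in these libraries and dKO replicate 2 the oligodendrocyte precursor markers are low and the intermediate progenitor markers high.

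Markers of other cells of the cortex differed between the libraries as well. For intermediate progenitors, 6 of 7 genes were higher in dKO cortex at an unadjusted p under 0.05, against 4.92% of all features. The median log2 fold change was 0.49, and wild-type replicate 2 was the highest wild-type library for 6 of 7. Their summed level was 8200 to 11121 normalized counts in wild-type and 11842 to 15045 in dKO libraries, and the smallest p-values were those of Btg2 (log2 fold change 0.49) and Insm1 (0.48). By immunofluorescence at E18.5, the paper counted fewer cells positive for the progenitor markers TBR2 and SOX2 in dKO cortex. Cell counts and RNA levels are unlike measures, and their relation was not tested. For oligodendrocyte precursors, 6 of 8 were lower at an unadjusted p under 0.05, against 6.58% of all features, among them Gpr17 (-0.76) and Olig1 (-0.84). The median was -0.80, and the sums were 7841 to 13710 and 4381 to 7437. The 6 genes became 2 without wild-type replicate 1 or without the trend and robust options, 3 without wild-type replicate 3 or dKO replicate 3, and 0 without replicate 1 of both genotypes, while those of the intermediate progenitors became 3 without the trend and robust options. Wild-type replicate 2 was the lowest wild-type library for 8 of 8 oligodendrocyte precursor genes.

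Of 13 radial glia genes, 4 were higher and 0 lower at an unadjusted p under 0.05 (4.92% and 6.58% of all features), with a median log2 fold change of 0.13. They were Gli3 (0.49), Pax6 (0.28) and Sox3 (0.35), transcription factor genes, and Vim (0.23), an intermediate filament gene, while the adhesion gene Cdh2, the most abundant, had 0.06. Of 14 cortical neuron genes, 6 were higher and 0 lower, with Emx1 (0.54) and Neurod2 (0.31) at the smallest p-values and Tubb3 (0.18) the most abundant. The 4 radial glia genes became 1 without wild-type replicate 1, 2 without dKO replicate 1 or 3, and 0 without replicate 1 of both genotypes. The 6 neuronal genes became 2 without wild-type replicate 3 or dKO replicate 1, 3 without dKO replicate 3, and 1 without the trend and robust options.

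Marker genes of cells around the cortex, of its vessels and of blood were also examined. Meningeal markers were lower in dKO cortex at an unadjusted p under 0.05 for 3 of 9, against 6.58% of all features. Their median was -0.76 (Slc6a13 -2.35, Dcn -1.59, the most abundant, Igf2, -0.20), and their sum was 1177 to 2598 in wild-type and 1135 to 1244 in dKO libraries. Endothelial and mural markers were lower at that threshold for 3 of 11, or 27.3% (Flt1 -0.76, Rgs5 -0.31), with sums of 12290 to 14210 and 10040 to 12217. Of the microglia and macrophage markers, 1 of 14 was lower, or 7.14%, near the 6.58% of all features (Mrc1 -1.27, and Csf1r, the most abundant, -0.16). The median of this list was -0.08, with 9 genes below 0 and 5 above, and its sums overlapped at 3464 to 5211 and 3703 to 4284. Of 9 choroid plexus and ependyma markers 4 could be tested, 0 of them with an unadjusted p under 0.05 (Foxj1 -0.69, Rarres2 -0.62); Ttr, the defining choroid plexus gene, was between 1.9 and 14.0 normalized counts, and Tmem212 was at 0 in every library. Of 5 erythroid genes 0 had an unadjusted p under 0.05 (Alas2 0.20, and Hba-a1, the most abundant, 0.09). The 3 meningeal genes became 5 without wild-type replicate 2 and 0 without wild-type replicate 3. The 3 endothelial and mural genes became 5 without wild-type replicate 2 and 1 without dKO replicate 3. The 1 gene of the microglia and macrophage list became 4 without wild-type replicate 2. That count became 0 without wild-type replicate 1, wild-type replicate 3 or dKO replicate 3. No gene of these lists passed the adjusted threshold in limma, and the part of these cell types in the values of the 10 genes was not tested.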

How the data were processed

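PolyA+ RNA of E18.5 cortex was sequenced by the authors as stranded 150 bp paired-end libraries, 3 per genotype as labelled. The submitters' processing notes name STAR 2.7.5a, SAMtools, Picard, FastQC, DESeq2 and mm10. The counting program and strand setting are not given in the sources used here. The deposited signal is the count of reads per gene of the FAST database divided by a DESeq2 size factor. All positive values were whole multiples of 1 read within a tolerance of 0.01, so reads were recovered.

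With R 4.3.3 and limma 3.58.1 (trend, robust), log2(normalized count + 1) was compared between genotypes for the 18970 features whose mean reached 10, with Benjamini-Hochberg adjustment over all of them and a threshold of 0.05. Fold changes on this scale understate those of low genes. The fit was tested on simulated data. Alternatives were edgeR 4.0.16 and DESeq2 1.42.0 on recovered reads, pseudocounts of 0.1 and 10, no filter or a mean of at least 50, quantile and TMM normalization, limma without trend and robust options, the replicate block, and libraries left out. Exon lengths came from GENCODE M21 and promoters from RefSeq.

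The genes and lists were chosen with earlier results of these data known. Named beside the 10 genes were the 4 smallest p-values of each gliogenic and radial glia list, the 2 smallest of the others and the most abundant gene. Some genes that this rule names are not reported here. Aldh1a1, Cntf, Clcf1, Sox1, Foxd1, Hbb-bs and Hbb-bt were not matched and are not analysed here.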

Additional observations from a re-analysis of the deposited data

How the results depend on the processing

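With all 6 libraries, 19 features, 0 of the 10 genes at an adjusted p and 2 at an unadjusted p under 0.05 were called, 1 of the 10 did not overlap, and 16 genes of the 4 gliogenic lists had an unadjusted p under 0.05. The features called were 207 with DESeq2, 7 without the trend and robust options, 9 with the replicate block, 5 without replicate 1 of both genotypes, and 7 (without dKO replicate 3) to 46 (without dKO replicate 1) with each library left out. The genes called were 1 with DESeq2 and 0 under every other alternative run. At an unadjusted p, 4 of the 10 passed with DESeq2 (11.6% of all features did), 1 without the trend and robust options (9.88%), 1 with quantile normalization (10.03%), 1 without replicate 1 (9.36%) and 1 to 8 with each library left out (8 without wild-type replicate 2 against 14.3%, 5 without dKO replicate 2 against 12.2%, and 1 or 2 without each of the others against 6.47% to 11.9%). The genes without overlap were 1 to 8 with each library left out (8 without wild-type replicate 2 against 33.0% of all features, 4 without dKO replicate 2 against 30.2%, and 1 without each of the others against 22.3% to 29.5%), and the list genes 9 to 32 (9 without wild-type replicate 3, 32 without wild-type replicate 2), or 7 without replicate 1. The log2 fold change of Aldoc turned to -0.021 with quantile normalization and lay between -0.15 and 0.19 when single libraries were omitted. That of Sox9 turned to 0.08 without replicate 1 and ranged from -0.28 to 0.14. Khdrbs3 kept its log2 fold change of -1.05 without the trend and robust options, with an adjusted p of 0.0891. The causes of these changes were not tested. The replicate numbers mark no shared litter in the labels, and the deviations of same-numbered libraries correlated at 0.098, -0.228 and -0.079, so the numbers were not taken to pair them; the replicate block changed no call among the 10 genes, and 0 gliogenic transcription factors had an unadjusted p under 0.05 with it, against 3. Depth limits Aqp4 most, with 22 to 133 reads.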
